A study of Mus musculus with 12 samples.

Results

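Surface receptors of the CD antigen, integrin, Fc gamma receptor and C-type lectin families were examined in mouse mast cells. The genes were taken by name from an nCounter panel, as every endogenous probe whose gene symbol begins with Cd and a digit, Itg, Fcgr or Clec, which gave 45 of the 734 endogenous genes of the panel.

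Fc gamma receptors bind the constant part of IgG and tie antibody to cell activation or, in the case of Fcgr2b, to inhibition. Integrins are pairs of an alpha and a beta chain that hold cells to matrix or to other cells, and the beta chain Itgb7 with the alpha chain Itga4 is known for bringing mast cell progenitors to the gut. CD antigen is a naming system for leukocyte surface molecules and joins costimulatory ligands, checkpoint receptors, scavenger receptors and adhesion molecules that need share neither sequence nor role.

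The cells were bone marrow-derived mast cells, grown from bone marrow of C57BL/6 mice of 6 to 8 weeks in IL-3. All of them were edited with Cas9 and received a zsGreen reporter at the cut site, either in Kit (Kit libraries) or in Mettl3 (Mettl3 libraries), and all were sorted for zsGreen. Each genotype was measured unstimulated (US) and after 4 h with IgE and antigen complexes (IgE), with 3 biological replicates in each of the 4 groups. The Kit-edited cells are the control for editing and sorting, no unedited cells were measured on the panel, and the cells were cultured and sorted, so other cells of a tissue are missing from the comparison.

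Each library gave between 504238 and 737910 counts on the endogenous probes, and the 45 genes together took 1.61% to 2.43% of them. In a library the 8 negative probes averaged between 7.13 and 22.8 counts, and the highest of them gave 10 to 38. Their mean plus 2 SD was 13.1 to 39.2, so counts somewhat above 20 can still be background. Values below are counts divided by a library factor from 20 probes, called normalized counts. These 20 probes form a block of their own before the control probes and were taken as the housekeeping set, which the deposit does not mark. Every gene has a probe of its own, and probes differ in efficiency, so levels are compared between libraries, and any ranking of genes below is of counts and not of transcripts.

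The Kit libraries of replicate 1 stood apart in their positive controls, with a geometric mean of 738 counts in the unstimulated and 768.5 in the stimulated library while all others had 1195 to 1706. Their negative probes averaged 7.13 and 11.5 counts, against 15.1 to 22.75 in all others. Background was not subtracted in the main test, and a fit with background subtracted was among the alternatives. The stimulated Mettl3 library of replicate 3 has another replicate number in the supplement of the study, so its pairing was checked. Its deviations from the group mean correlated with those of the other replicate 3 libraries at 0.381, 0.289 and 0.483, and with those of the libraries of other numbers at -0.395 to -0.045. The Kit probe gave 1856, 2856 and 2826 normalized counts in the unstimulated Kit libraries, 1159, 1613 and 738.5 in the stimulated ones, 4057, 2533 and 2456 in the unstimulated Mettl3 libraries and 1845, 1771 and 1550 in the stimulated ones. This probe lies downstream of the edited exon 2, and the unstimulated Kit libraries overlapped the Mettl3 libraries in it (log2 fold change of Mettl3 over Kit 0.26, SE 0.32, edgeR adjusted p = 0.997, higher in 1 of 3 pairs). In stimulated libraries the value was 0.56 (SE 0.32, edgeR adjusted p = 0.469), higher in 3 of 3 pairs, and the groups overlapped too, so Kit RNA was still measured in the Kit libraries. The panel has no Mettl3 probe, so genotypes are those of the labels.

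Of the 45 genes, 32 were detected, with at least 20 counts in at least 3 libraries, a share of 71.1% against 74.3% for all endogenous genes. All 5 integrin alpha chains, all 3 beta chains, all 3 genes of the group of SLAM receptors and the CD3 zeta chain, and 3 of 4 Fc gamma receptors passed. Of the costimulatory molecules 5 of 10 passed and of the C-type lectin receptors 2 of 5, and differences in detection between groups were not tested. The 13 genes that were not detected were Cd14, Cd1d2, Cd209e, Cd27, Cd28, Cd36, Cd38, Cd40lg, Cd70, Cd83, Clec1b, Clec9a and Fcgr4. With the exception of Cd27 their raw counts ran from 4 to 24, and 7 of the 13 had no library with 20 counts. Just inside the limit lay Cd163 and Itgax, with 5 libraries at 20 counts or more, while Cd27 and Cd209e lay just outside with 2. Cd163 had 9 to 26 raw counts and Itgax 12 to 28, both close to background, as was Itgam with 8 to 26 and 7 libraries at 20 counts or more.

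The 5 genes with the most counts were Cd34, Cd47, Cd244, Itgb1 and Cd274. Cd34, a sialomucin of progenitors that mast cells keep, averaged 4090 ± 1868 normalized counts (SD, n = 3) in unstimulated Kit cells, 3762 ± 777 in stimulated Kit cells, 3935 ± 1810 in unstimulated Mettl3 cells and 2865 ± 712 in stimulated Mettl3 cells. The unstimulated libraries spanned 2009 to 5987 and enclosed every stimulated library. Cd47, the ligand that restrains phagocytes through SIRP alpha, lay between 1326 and 2664 in the 12 libraries. For both genes the groups overlapped in every comparison.

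Stimulation with IgE and antigen lowered the inhibitory and the activating low-affinity Fc gamma receptors and the integrin beta chain Itgb7, and raised the beta chain Itgb2, in both genotypes. In Kit libraries 1 gene rose (Itgb2) and 3 fell (Fcgr2b, Fcgr3 and Itgb7) at an adjusted p under 0.05, out of 32 tested, where 12.1% of the 545 tested panel genes rose and 6.79% fell. In Mettl3 libraries 4 rose (Itgb2, Itga5, Itgal and Clec7a) and the same 3 fell, where 22% of the panel genes rose and 10.6% fell. The median log2 fold change over the 32 genes was -0.11 in Kit and -0.01 in Mettl3 libraries, against -0.05 and 0.02 over the 545 genes. Here and below, edgeR stands for its quasi-likelihood F test, and adjusted p values are by Benjamini and Hochberg over the 545 genes.

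Leaving out the Kit libraries of replicate 1, an alternative added after seeing the data, left 1 call in Kit cells (Fcgr2b) and 7 in Mettl3 cells, while over the panel the calls in Kit cells went from 66 higher and 37 lower to 39 and 19. Single libraries mattered too, as the 4 calls in Kit cells became 1 without the unstimulated library of replicate 1 or the stimulated library of replicate 3, and the 7 in Mettl3 cells became 4 without the stimulated library of replicate 1. With replicate as a block in the model, 6 genes passed in Kit cells, Cd1d1 and Cd99 in addition, against 28.6% of the panel genes, and 8 passed in Mettl3 cells, Cd180 in addition, against 40.9%. Cd1d1 and Cd99 no longer passed in Kit cells when the block was kept and the stimulated Mettl3 library of replicate 3 was dropped, an alternative also added after seeing the data. Over the panel, edgeR with housekeeping scaling called 120 genes higher and 58 lower in Mettl3 cells, 67.4% of its calls higher. With TMM scaling in edgeR it was 114 and 67 (63% higher), and with DESeq2, where both test and scaling differ, 128 and 97 (56.9% higher). Scaling to the housekeeping probes of at least 100 counts gave 131 and 46 (74% higher). In Kit cells DESeq2 called 100 panel genes higher and 62 lower, against 66 and 37 with edgeR.

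**Figure D1:**
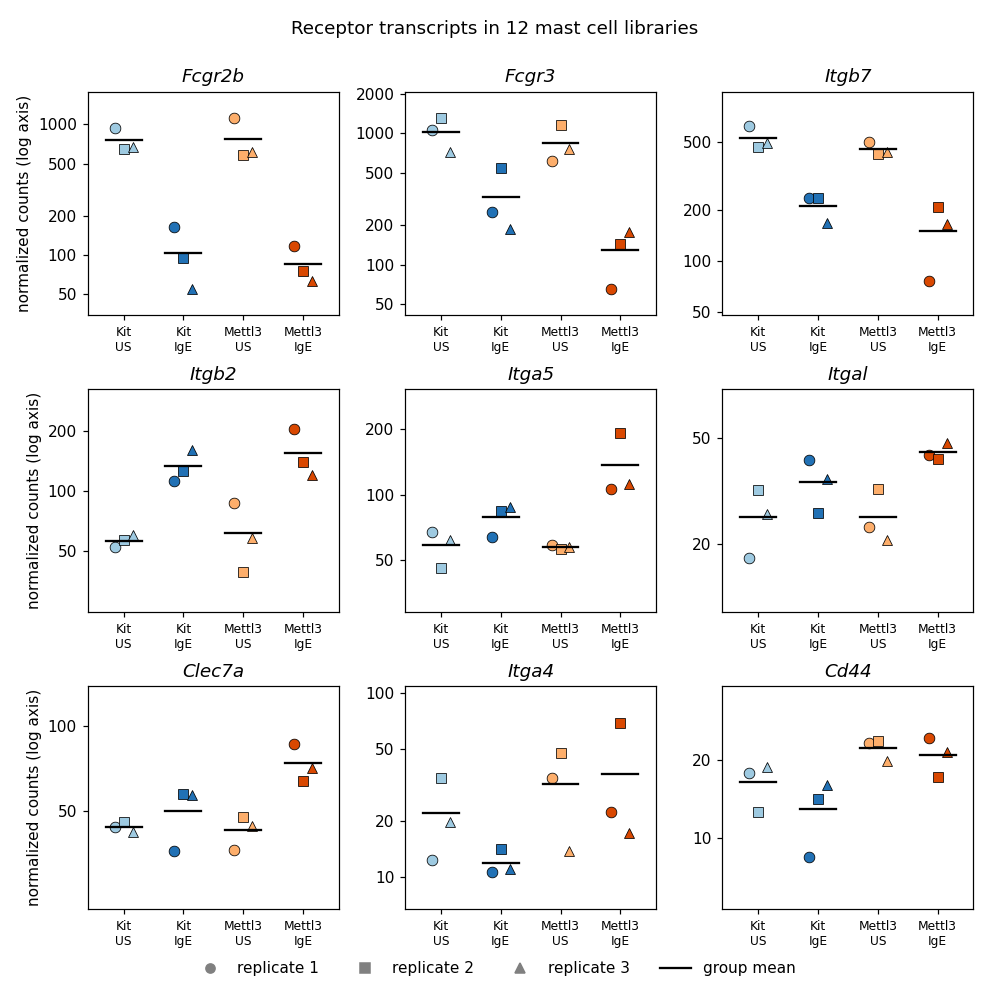
Normalized counts (log axis) of 9 receptor genes in the 12 libraries, by group on the horizontal axis, with a symbol for each replicate and a line at the group mean. Fcgr2b lies between 586 and 1114 in the 6 unstimulated libraries and between 54.95 and 163 in the 6 stimulated ones.

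Fcgr2b encodes the inhibitory receptor for IgG, which carries an inhibitory motif in its tail and can damp signals of the IgE receptor when both are engaged. It gave 945, 649.5 and 671 normalized counts in the unstimulated Kit libraries and 163, 93.8 and 54.95 in the stimulated ones. In Mettl3 libraries it gave 1114, 586 and 617 without and 117, 75.05 and 62.9 with stimulation. All 6 stimulated libraries lay below all 6 unstimulated ones. Fcgr2b fell by a log2 fold change of -2.86 (SE 0.44, edgeR adjusted p = 0.0011) in Kit and -3.18 (SE 0.44, edgeR adjusted p = 0.000459) in Mettl3 cells, lower in 3 of 3 same-numbered pairs of each. Both calls held in each of the 28 alternatives, and without both Kit libraries of replicate 1 the Kit value was -3.15.

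Fcgr3, the activating receptor that signals through the common Fc gamma chain, gave 1056, 1297 and 718 normalized counts in unstimulated and 253, 545 and 185 in stimulated Kit libraries. In Mettl3 libraries it gave 619.8, 1148 and 764 without and 65.8, 144 and 177 with stimulation. The stimulated libraries were lower without overlap in both genotypes, and the 3 stimulated Mettl3 libraries lay below the 3 stimulated Kit libraries, narrowly for replicate 3. With stimulation the log2 fold change was -1.64 (SE 0.47, edgeR adjusted p = 0.0313) in Kit and -2.71 (SE 0.49, edgeR adjusted p = 0.00143) in Mettl3 cells, lower in 3 of 3 pairs of each. The Kit call was lost without the unstimulated library of replicate 1 or 2 or the stimulated library of replicate 1 or 3 (edgeR adjusted p 0.0779 to 0.118), without replicate 1 or 3 as a whole, with the methods' t-test, and without both Kit libraries of replicate 1, where the value was -1.47 (edgeR adjusted p = 0.158, in a range of 0.00104 to 0.163 over all alternatives). The Mettl3 call held in all 28 alternatives.

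The other 2 Fc gamma receptors gave few counts. Fcgr1, the high-affinity receptor for IgG, had 32.9, 28.7 and 28.7 normalized counts in unstimulated and 20.1, 15.1 and 19.05 in stimulated Kit libraries, which do not overlap but lie at the level of the negative controls after stimulation. Its log2 fold change was -0.72 (SE 0.26, edgeR adjusted p = 0.0752) in Kit and -0.43 (SE 0.26, edgeR adjusted p = 0.247) in Mettl3 cells. Fcgr4 reached at most 14 raw counts. Fcgr2b, Fcgr4 and Fcgr3 lie side by side on chromosome 1 (GRCm39, GENCODE vM39), at 170786186 to 170804177, 170846466 to 170857330 and 170878738 to 170893549, whereas Fcgr1 lies on chromosome 3 at 96190225 to 96201338. Fcgr2b and Fcgr3 are close relatives in sequence, and whether their probes bind the other's transcript was not tested. RNA was measured in bulk, so that fewer cells that express a gene and less of its RNA in each cell cannot be told apart.

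Among the integrin beta chains, Itgb7 gave 622, 467 and 499 normalized counts in unstimulated and 234.2, 234 and 168.5 in stimulated Kit libraries. In Mettl3 libraries it gave 501, 429 and 439.9 without and 76.6, 207 and 165 with stimulation. Unstimulated libraries were higher throughout, and the lowest value of the 12 belonged to the stimulated Mettl3 library of replicate 1. Itgb7 fell by a log2 fold change of -1.32 (SE 0.33, edgeR adjusted p = 0.0181) in Kit and -1.61 (SE 0.33, edgeR adjusted p = 0.00354) in Mettl3 cells, lower in 3 of 3 pairs of each. The Kit call was lost without the unstimulated library of replicate 1 or the stimulated library of replicate 3 (edgeR adjusted p 0.0674 to 0.0794) and without any 1 of the replicates as a whole, and without both Kit libraries of replicate 1 the value was -1.26 (edgeR adjusted p = 0.0884, in a range of 0.000283 to 0.157 over all alternatives). The Mettl3 call was lost only with the methods' t-test after adjustment, in a range of adjusted p of 3.35e-07 to 0.0758 over all alternatives. Itgb7 lies on chromosome 15 at 102124429 to 102140379 (GRCm39).

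Itgb2, the beta chain of the leukocyte integrins that bind ICAM-1 and complement, moved the other way. It gave 52.05, 56.2 and 60.1 normalized counts in unstimulated and 112, 125 and 160.4 in stimulated Kit libraries. In Mettl3 libraries it gave 87.2, 39.2 and 58.1 without and 204, 139 and 120 with stimulation. The stimulated libraries were higher without overlap in both genotypes, and the stimulated groups overlapped each other. Itgb2 rose by 1.24 on the log2 scale (SE 0.33, edgeR adjusted p = 0.025) in Kit and 1.32 (SE 0.33, edgeR adjusted p = 0.0101) in Mettl3 cells, higher in 3 of 3 pairs of each. In Kit cells the call was lost without any 1 of the unstimulated Kit libraries or the stimulated Kit library of replicate 3 (edgeR adjusted p 0.0567 to 0.0942), without any 1 of the replicates as a whole, with background subtracted, and without both Kit libraries of replicate 1, where the value was 1.29 (edgeR adjusted p = 0.0855, in a range of 0.00123 to 0.172 over all alternatives). In Mettl3 cells it was lost without the stimulated library of replicate 1 (edgeR adjusted p = 0.0523, in a range of 0.00201 to 0.0965), without replicate 1 or 2 as a whole, and with the methods' t-test. Itgb1, the most widely shared beta chain and a partner of both Itga4 and Itga5, gave 785 to 894 normalized counts in unstimulated and 849 to 1253 in stimulated Kit libraries, and 861 to 1099 and 1103 to 1606 in the Mettl3 libraries. Its log2 fold change was 0.28 (SE 0.23) in Kit and 0.52 (SE 0.23, edgeR adjusted p = 0.113) in Mettl3 cells and did not pass, though DESeq2 called it in Mettl3 cells, as did edgeR with the block and without the stimulated library of replicate 3.

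Of the alpha chains, Itga5, which forms the fibronectin receptor with Itgb1, gave 67.1, 45.9 and 61.9 normalized counts in unstimulated and 63.6, 83.7 and 87.9 in stimulated Kit libraries. In Mettl3 libraries it gave 58.8, 55.95 and 57.3 without and 106, 192 and 112 with stimulation. The stimulated Mettl3 libraries lay above all other libraries, while the Kit groups overlapped. Itga5 rose by 1.25 on the log2 scale (SE 0.30, edgeR adjusted p = 0.0084) in Mettl3 cells, higher in 3 of 3 pairs, and had a value of 0.43 (SE 0.30, edgeR adjusted p = 0.37) in Kit cells, higher in 2 of 3. The difference between these changes was 0.82 (SE 0.42, edgeR adjusted p = 0.993) and did not pass, so the genotypes are not shown to differ. The call in Mettl3 cells held without each single library and was lost with the methods' t-test and without replicate 1 or 2 as a whole.

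Itgal, the alpha chain of LFA-1 and a partner of Itgb2, gave 23.3, 32.2 and 20.8 normalized counts in unstimulated and 43.2, 41.8 and 48.0 in stimulated Mettl3 libraries, without overlap. In Kit libraries it gave 17.8, 32.1 and 26.0 without and 41.3, 26.2 and 35.2 with stimulation, and the groups overlapped. The rise in Mettl3 cells was 0.82 (SE 0.29, edgeR adjusted p = 0.0487), higher in 3 of 3 pairs, and in Kit cells the value was 0.43 (SE 0.29, edgeR adjusted p = 0.359), with a difference between these of 0.39 (SE 0.41, edgeR adjusted p = 0.993). This call lay at the threshold. It was lost without any 1 of the stimulated Mettl3 libraries, the unstimulated Mettl3 libraries of replicates 1 and 3, or the Kit libraries of replicate 3 (edgeR adjusted p 0.0571 to 0.142), and it held in 11 of 27 alternatives, TMM scaling not among them. Over all 27 the Itgal rise in Mettl3 cells ran from 0.63 to 1.75. Itga4, Itgam and Itgax, the alpha chains of VLA-4 and of the complement receptors, ran at 10.6 to 68.9, 8.48 to 29.4 and 12.5 to 33.6 normalized counts, which for Itgam and Itgax is near background, and none of them passed with stimulation in either genotype in edgeR's test of the 4 groups. Itgax passed in Mettl3 cells in 1 alternative, the block without the stimulated library of replicate 3, the library that was not lower than its partner (0.04 on the log2 scale). Of the 5 libraries that took Itgax past the filter 3 are the unstimulated Mettl3 ones, where it is highest as a group. Itgal, Itgam and Itgax all lie on chromosome 7 (GRCm39), at 126895432 to 126934320, 127661808 to 127717753 and 127728668 to 127749829.

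Clec7a (Dectin-1), the lectin that recognises fungal beta-glucan, gave 36.5, 47.6 and 44.25 normalized counts in unstimulated and 86.5, 64.0 and 71.2 in stimulated Mettl3 libraries, without overlap. In Kit libraries it gave 43.8, 45.9 and 42.2 without and 36.0, 57.5 and 57.1 with stimulation, and the stimulated library of replicate 1 was the lowest of the 6. The rise in Mettl3 cells was 0.79 (SE 0.27, edgeR adjusted p = 0.0404), higher in 3 of 3 pairs, and the Kit value was 0.20 (SE 0.27, edgeR adjusted p = 0.647), with a difference of 0.60 (SE 0.38, edgeR adjusted p = 0.993). The call was lost without any 1 of the 6 Mettl3 libraries or the 3 unstimulated Kit libraries (edgeR adjusted p 0.0502 to 0.143), and held in 10 of 28 alternatives, neither TMM scaling nor DESeq2 among them. The other detected lectin, Clec5a, a receptor that signals through DAP12, stayed at 24.2 to 40.6 normalized counts, with log2 fold changes of -0.10 (SE 0.25) in Kit and -0.39 (SE 0.24) in Mettl3 cells.

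**Figure D2:**
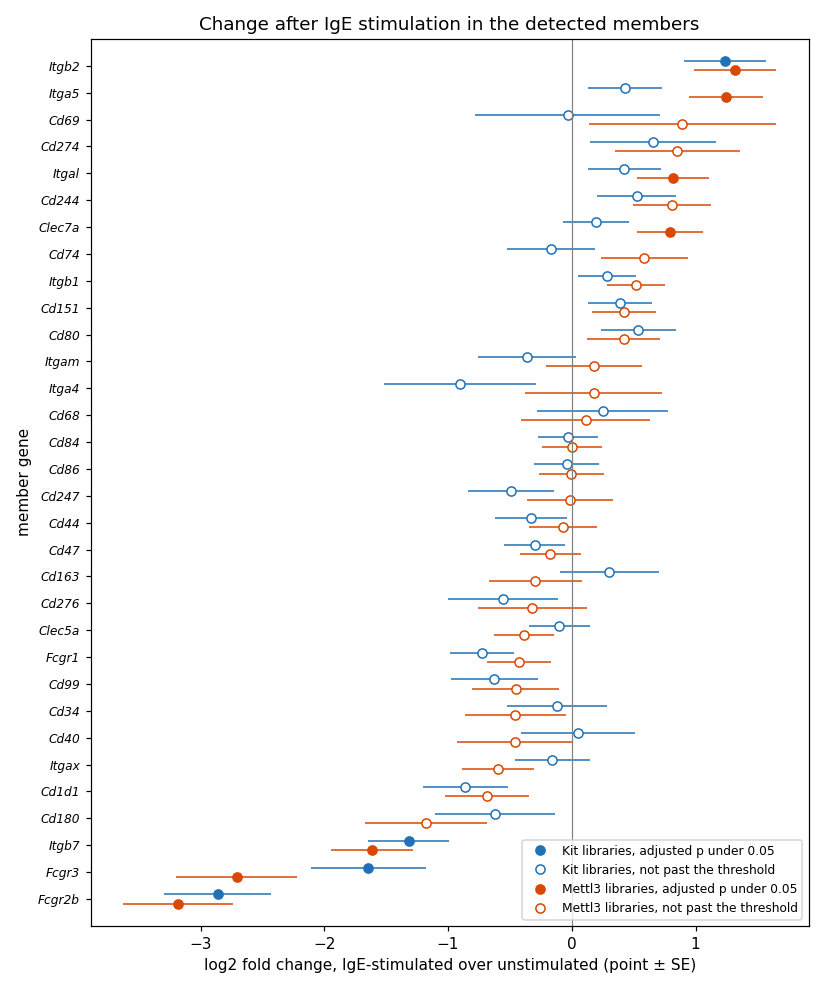
Log2 fold change of the 32 detected receptor genes after stimulation (point ± SE, 3 against 3 libraries), in Kit libraries (blue) and Mettl3 libraries (orange), with filled points for an adjusted p under 0.05 in edgeR's test. Fcgr2b (-2.86 and -3.18), Fcgr3 and Itgb7 lie lowest in both genotypes and Itgb2 (1.24 and 1.32) highest.

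None of the costimulatory members passed in either genotype, a count of 0 of 5 tested that was also 0 at an unadjusted p under 0.05 in edgeR's test and 0 with DESeq2, limma and the methods' t-test. Of the 545 panel genes, 12.1% rose and 6.79% fell in Kit cells, and 22% and 10.6% in Mettl3 cells, in edgeR's test. At an unadjusted p under 0.05 there were 187 and 233 of them. Whether 0 of 5 differs from these shares was not tested. Cd274 (PD-L1), the ligand of the checkpoint receptor PD-1, gave 466, 1317 and 589 normalized counts in unstimulated and 609, 2151 and 979.5 in stimulated Kit libraries. In Mettl3 libraries it gave 802, 916 and 556 without and 934, 2009 and 1168 with stimulation. Every stimulated library exceeded the unstimulated one of its replicate number, and the libraries of replicate 2 were highest in each group. The log2 fold change was 0.66 (SE 0.51, edgeR adjusted p = 0.418) in Kit and 0.85 (SE 0.51, edgeR adjusted p = 0.236) in Mettl3 cells. With the replicate block it was 0.63 (SE 0.28, edgeR adjusted p = 0.123) and 0.75 (SE 0.28, edgeR adjusted p = 0.0541), under an unadjusted p of 0.05 in both genotypes, and Cd274 was the only 1 of the 5 genes there. The ligands Cd80 and Cd86, which bind CD28 and CTLA-4, and the receptor Cd40 stayed at 13.7 to 36.0, 23.3 to 40.6 and 10.3 to 45.6 normalized counts. Cd276 (B7-H3) ran from 80.7 to 279.9, with log2 fold changes of -0.56 (SE 0.44) and -0.32 (SE 0.44).

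Cd244 (2B4), a SLAM family receptor, gave 1190, 602 and 1014 normalized counts in unstimulated and 1338, 1596 and 1100 in stimulated Kit libraries, and 975, 638 and 934.5 against 1550, 1879 and 1043 in Mettl3 libraries. It was higher in every stimulated library than in its unstimulated partner, and the groups overlapped in Kit but not in Mettl3 cells. The log2 fold change was 0.52 (SE 0.32, edgeR adjusted p = 0.289) in Kit and 0.81 (SE 0.32, edgeR adjusted p = 0.0696) in Mettl3 cells, short of the threshold in both. It passed in Mettl3 cells without the unstimulated Kit library of replicate 2 or the stimulated Mettl3 library of replicate 3, with or without the block in the latter case, and with scaling to the housekeeping probes of at least 100 counts. Cd84, another SLAM receptor of mast cells, stayed between 671 and 1187, with log2 fold changes of -0.03 (SE 0.24) and 0.00 (SE 0.24). Cd247, the CD3 zeta chain, lay near background at 19.1 to 47.0 normalized counts.

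Cd1d1, which presents lipid antigens to NKT cells, gave 74.0, 29.8 and 46.65 normalized counts in unstimulated and 30.7, 22.2 and 29.3 in stimulated Kit libraries, and 71.0, 53.2 and 42.5 against 37.8, 30.8 and 34.8 in Mettl3 libraries. It was lower in all 6 pairs. The log2 fold change was -0.86 (SE 0.35, edgeR adjusted p = 0.107) in Kit and -0.68 (SE 0.34, edgeR adjusted p = 0.148) in Mettl3 cells, and with the replicate block -0.81 (edgeR adjusted p = 0.0486) and -0.67 (edgeR adjusted p = 0.0704). It also passed in Kit cells without the unstimulated Kit library of replicate 2. The closely related Cd1d2 did not exceed 18 raw counts in any library. Cd74, the invariant chain of class II molecules, stayed at 10.6 to 33.3 normalized counts, with log2 fold changes of -0.17 (SE 0.36) in Kit and 0.59 (SE 0.35, edgeR adjusted p = 0.244) in Mettl3 cells, and was called in Mettl3 cells by the methods' t-test alone.

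Cd180, a Toll-like receptor homologue that works with Md-1, gave 245, 171 and 135 normalized counts in unstimulated and 195, 111 and 52.75 in stimulated Kit libraries, and 333, 228 and 121 against 114, 121 and 66.2 in Mettl3 libraries. The libraries of replicate 3 were low in each group, and each stimulated library was lower than its partner. In Mettl3 cells the log2 fold change was -1.18 (SE 0.49, edgeR adjusted p = 0.0905), and with the replicate block -1.10 (SE 0.26, edgeR adjusted p = 0.0071). It also passed there with DESeq2, without replicate 3 as a whole, and with the block and without the stimulated library of replicate 3. In Kit cells it was -0.62 (SE 0.49, edgeR adjusted p = 0.431), and with the block -0.75 (SE 0.26, edgeR adjusted p = 0.0526). Cd68, a lysosomal glycoprotein often used as a macrophage marker, ran from 65.9 to 338.7 and was higher in the Mettl3 than in the Kit library of the same number in all 6 pairs, by a log2 fold change of 0.97 (SE 0.53, edgeR adjusted p = 0.997) without and 0.83 (SE 0.53, edgeR adjusted p = 0.532) with stimulation.

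Among the adhesion and activation antigens, Cd69, an early activation antigen of lymphocytes, gave 1338, 1393 and 329 normalized counts in unstimulated and 1934, 669.8 and 386 in stimulated Kit libraries, and 781, 744 and 347 against 1958, 1245 and 276 in Mettl3 libraries. The lowest library in each group was replicate 3, and the groups overlapped in every comparison. Cd99, a small adhesion molecule of leukocyte migration, gave 60.3, 76.9 and 43.96 against 33.9, 56.5 and 27.1 in Kit libraries, a log2 fold change of -0.63 (SE 0.35, edgeR adjusted p = 0.251) that became -0.65 (SE 0.22, edgeR adjusted p = 0.049) with the replicate block. The tetraspanin Cd151 was higher in every stimulated library than in its partner, by a log2 fold change of 0.39 (SE 0.26) in Kit and 0.42 (SE 0.26) in Mettl3 cells, and did not pass. Cd44, the hyaluronan receptor, lay at 8.48 to 24.3 normalized counts. It exceeded the highest negative probe only in the unstimulated Kit library of replicate 1, with 13 raw counts against 10.

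Without stimulation the genotypes were compared to see whether loss of Mettl3 alters receptor transcripts in resting cells, with the Kit-edited cells as control. edgeR called 0 of the 32 genes, as it called 0% of the 545, and the count at an unadjusted p under 0.05 was 0 of 32 and 7 of 545. DESeq2, limma and the methods' t-test also called 0 members. The study's methods took genes with a fold change of 1.5 or more whose p, unadjusted, did not exceed 0.05, and by this rule 0 members were higher and 0 lower, where 0.734% and 0.55% of the panel were. Here the rule was applied to the p values of edgeR. With the replicate block it took in 2 members, both higher in Mettl3 cells, Cd68 (0.83, SE 0.29) and Cd163 (0.81, SE 0.33), with an edgeR adjusted p of 0.992 for both, and 8 higher and 4 lower of the 545 panel genes. Cd163 passed the filter with 5 libraries, 3 of them the unstimulated Mettl3 libraries in which it is high. The log2 fold changes ran from -0.71 to 0.97, with a median of 0.08 against 0.08 for all tested genes. Fcgr2b (0.03, SE 0.40), Fcgr3 (-0.28, SE 0.45) and Itgb7 (-0.21, SE 0.32) started from levels that overlapped between the genotypes.

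With stimulation the same comparison asked whether Mettl3 loss alters the activated state. Among the 32, edgeR called 0 after adjustment, where it called 0.917% of the 545. At an unadjusted p under 0.05 it gave 4 of 32 and 79 of 545. By the methods' rule 3 genes were higher in Mettl3 cells (Itga4, Itga5 and Cd44), where 13% of the panel was, and 1 was lower (Fcgr3), where 1.1% was. All 4 were lost with the methods' t-test itself, which gave 0 of 32 and 38 of 545 genes at an unadjusted p under 0.05. The block kept the 4 and added Cd68 (0.77, SE 0.29, edgeR adjusted p = 0.166), where it took in 94 higher and 12 lower of the 545 panel genes. The median log2 fold change was 0.22 over the 32 genes and 0.20 over the 545. With TMM scaling these medians became 0.03 and 0.02, so that a value of about 0.2 in this comparison is shared by the panel and depends on the scaling.

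Fcgr3 had the largest difference downward among them, with a log2 fold change of -1.34 (SE 0.47, edgeR adjusted p = 0.205), lower in 3 of 3 pairs. The monocyte and macrophage markers Cx3cr1 (-1.29, SE 0.53, lower in 2 of 3 pairs) and Ly6c1 (-0.89, SE 0.36, lower in 3 of 3) also met the methods' rule as lower. Both had an edgeR adjusted p of 0.276. Of the 7 monocyte and macrophage markers tested, 4 were lower and 3 higher in Mettl3 cells, with a median log2 fold change of -0.04. The part of Cx3cr1 and Ly6c1 in the Fcgr3 value was not tested. limma and the methods' t-test called 0 members, whereas DESeq2 called Fcgr3 (-1.50, DESeq2 adjusted p = 0.0215, in a range of 0.00911 to 0.823 over all alternatives). Without the stimulated Kit library of replicate 2 or the stimulated Mettl3 library of replicate 1 it no longer met the methods' rule, and its size was then as little as -0.76. It was likewise lost without replicate 1 or 2 as a whole. Itga5 differed by 0.80 (SE 0.30, edgeR adjusted p = 0.228) and no longer met that rule with TMM scaling, with DESeq2, in a model of only the groups compared, without replicate 1 or 2 as a whole, without both Kit libraries of replicate 1, or without the stimulated Kit library of replicate 1 or the stimulated Mettl3 library of replicate 2, where the value fell to 0.47.

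Itga4, the alpha chain of VLA-4 and partner of Itgb7 and Itgb1, gave 12.3, 34.4 and 19.7 normalized counts in unstimulated and 10.6, 14.1 and 10.99 in stimulated Kit libraries, and 34.5, 47.6 and 13.9 against 22.5, 68.9 and 17.4 in Mettl3 libraries. The stimulated Kit libraries lay at background and the Mettl3 library of replicate 2 well above it. The difference in stimulated cells was 1.57 (SE 0.60, edgeR adjusted p = 0.233), higher in 3 of 3 pairs, and without that Mettl3 library it was the lowest of the single omissions at 0.74. Without it, or without the stimulated Kit library of replicate 1 or 3, the methods' rule was no longer met (edgeR adjusted p 0.379 to 0.768), nor was it without replicate 1 or 2 as a whole, without both Kit libraries of replicate 1, or with counts under 20 set to 20. Over all alternatives the Itga4 difference ran from 0.74 to 7.17, so its size is not fixed. Cd44 gave 8.48, 14.1 and 16.1 normalized counts in stimulated Kit and 24.3, 17.2 and 21.5 in stimulated Mettl3 libraries, all near the negative controls. Its difference was 0.69 (SE 0.28, edgeR adjusted p = 0.276), and it missed the methods' rule without the stimulated Kit library of replicate 1 or the stimulated Mettl3 library of replicate 1 or 3, with values down to 0.48. It held in 14 of 27 alternatives, TMM scaling, DESeq2, background subtracted and counts under 20 set to 20 not among them. Over all 27 the Cd44 difference ran from 0.30 to 2.48.

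The interaction of genotype and stimulation, the test of whether the response itself differed, gave 0 of 32 genes in edgeR, as it gave 0% of the 545. At an unadjusted p under 0.05 it gave 0 of 32 and 23 of 545, and DESeq2 and limma also called 0 members. By the methods' rule 0 members and 4.22% of the panel were higher. The log2 differences ran from -1.07 for Fcgr3 (SE 0.65) to 1.08 for Itga4 (SE 0.83), with a median of 0.15 against 0.11 for all tested genes.

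Marker lists were set beside these values. All 10 mast cell markers were detected, with Cpa3, a mast cell carboxypeptidase, giving the most counts. Their summed normalized counts were 437800, 460200 and 354900 in unstimulated and 243900, 304600 and 183600 in stimulated Kit libraries, and 368300, 503700 and 399100 against 165600, 257800 and 176200 in Mettl3 libraries. The sum was thus lower in each stimulated library than in any unstimulated one, but it is carried by a few probes with high counts, Cpa3, Cma1 and Fcer1a among them. Of the 10 markers 9 had log2 fold changes below 0 in Kit and 8 in Mettl3 cells. Ms4a2, the beta chain of the IgE receptor, fell by -1.82 (SE 0.33, edgeR adjusted p = 0.00302) and -2.19 (SE 0.34, edgeR adjusted p = 0.000636), lower in 3 of 3 pairs of each, Kit also fell in Kit cells, and Cpa3 and Fcer1a in Mettl3 cells. Under the replicate block Cpa3 (edgeR adjusted p = 0.0107) and Fcer1a (edgeR adjusted p = 0.00531) passed in Kit cells as well, lower in 3 of 3 pairs of each at -1.01 (SE 0.24) and -1.06 (SE 0.22), and Cma1, Gata2 and Hpgds passed in Mettl3 cells. In the other direction Hdc, which makes histamine, rose by 2.22 (SE 0.67, edgeR adjusted p = 0.0369) in Kit and 2.27 (SE 0.67, edgeR adjusted p = 0.0223) in Mettl3 cells, in 3 of 3 pairs of each, and the IL-33 receptor Il1rl1 had values of -0.14 (SE 0.33) and 0.38 (SE 0.33). Of 11 monocyte and macrophage markers 7 were detected, C1qb, C1qc, Mertk and Siglec1 were not, and Csf1r stayed at 7.81 to 22.3 normalized counts, the level of the negative controls. Their sum, mostly Ly6c1 and Cx3cr1, was 8389, 7761 and 6946 in unstimulated and 3315, 2583 and 1552 in stimulated Kit libraries, and 7562, 9709 and 6538 against 956, 1906 and 1298 in Mettl3 libraries. Both sums were lower in the libraries where Fcgr2b, Fcgr3 and Itgb7 were lower, and their part in the result was not tested.

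Markers of other cells were scarce. Of 8 neutrophil markers 2 were detected (Mpo with the most counts, sums of 73.8 to 129.9), and Camp, Csf3r, Cxcr2, Elane, Ly6g and S100a8 were not. Of 7 markers of dendritic or class II presenting cells 4 were (H2-Eb1 with the most counts, sums of 87.7 to 149), and Flt3, H2-Aa and Xcr1 were not. Of 5 eosinophil markers only Siglecf was detected, and it rose with stimulation by 1.58 (SE 0.48, edgeR adjusted p = 0.038) in Kit and 2.18 (SE 0.47, edgeR adjusted p = 0.00486) in Mettl3 cells, in 3 of 3 pairs of each, while Ear6, Epx, Il5ra and Prg2 were not detected. Siglecf lay at background without stimulation, at 10.96 to 21.5 normalized counts, and 6 of the 8 libraries that took it past the filter were stimulated. The summed counts of this list ran from 62.5 to 187 over the 12 libraries. Of 4 lymphocyte markers 2 were (Nkg7 with the most counts, sums of 45.2 to 168), and Gzma and Klrk1 were not. Nkg7 had log2 fold changes with stimulation of 1.73 (SE 0.72, edgeR adjusted p = 0.115) in Kit and 1.31 (SE 0.70, edgeR adjusted p = 0.185) in Mettl3 cells, higher in 3 of 3 pairs of each, and passed in both with the replicate block (edgeR adjusted p = 0.0081 and 0.0485).

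Genes of the same pathways outside the families were followed as 3 lists. Of 17 further costimulation and checkpoint genes 13 were tested, and 6 rose in each genotype in edgeR's test, where 12.1% of the panel rose in Kit and 22% in Mettl3 cells, these being Tnfsf4, Pdcd1lg2, Havcr2, Vsir, Tigit and Tnfrsf9. Vsir and Tigit lay at background without stimulation (6.07 to 26.6 and 6.09 to 22.95 normalized counts) and passed the filter through their stimulated libraries. This list was chosen with earlier results of these data known, so its share was not tested against that of the panel. Pdcd1lg2 (PD-L2), the other ligand of PD-1, gave 17.8, 53.9 and 36.8 normalized counts in unstimulated and 219, 349 and 301 in stimulated Kit libraries, and 35.5, 39.2 and 26.0 against 431, 889.6 and 469 in Mettl3 libraries. Its log2 fold change was 2.99 (SE 0.43, edgeR adjusted p = 0.000703) and 4.15 (SE 0.45, edgeR adjusted p = 0.000123), higher in 3 of 3 pairs of each. Havcr2 (Tim-3) rose from between 407 and 698 in the unstimulated to between 1378 and 3718 in the stimulated libraries, and Tnfsf4 (OX40 ligand), which costimulates T cells, from 37.9 to 85.9 up to 299.6 to 663. Icosl also passed with the replicate block, lower in Mettl3 cells (-1.05, SE 0.36, edgeR adjusted p = 0.0369, lower in 3 of 3 pairs).

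Of 12 further adhesion genes 7 were tested, and Selplg, the P-selectin ligand PSGL-1, fell in both genotypes. It gave 914, 738 and 1131 normalized counts in unstimulated and 432, 296 and 294 in stimulated Kit libraries, and 1116, 1455 and 950.1 against 221, 567 and 334 in Mettl3 libraries. The log2 fold change was -1.45 (SE 0.35, edgeR adjusted p = 0.0157) in Kit and -1.65 (SE 0.35, edgeR adjusted p = 0.00421) in Mettl3 cells, lower in 3 of 3 pairs of each. With the replicate block Amica1 passed as well, at -1.40 (SE 0.39, edgeR adjusted p = 0.0208) and -1.71 (SE 0.40, edgeR adjusted p = 0.00635), lower in 3 of 3 pairs of each. All 8 immunoreceptor signalling genes were tested. Fyn, a Src family kinase of the IgE receptor pathway, and Lat, the adaptor for activated signalling, rose in both genotypes, Fyn by 2.58 (SE 0.38) and 3.44 (SE 0.39) and Lat by 0.71 (SE 0.19) and 0.62 (SE 0.19). In Mettl3 cells Ptprc (CD45) rose by 0.70 (SE 0.21, edgeR adjusted p = 0.0229) and Tyrobp (DAP12), the adaptor of Clec5a, had a fall of -1.24 (SE 0.32, edgeR adjusted p = 0.0113), with Kit values of 0.21 and -0.84 that did not pass. With the replicate block Tyrobp passed in Kit cells too (-0.81, SE 0.25, edgeR adjusted p = 0.0335, lower in 3 of 3 pairs). For these 2 genes the interaction did not pass in edgeR's test of the 4 groups.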

How the data were processed

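Counts, as deposited by the authors, are raw barcode counts per probe from 40 ng of RNA per sample on the nCounter Myeloid Innate Immunity Panel, with no scaling, alignment or genome build before deposit. Counts were scaled to the geometric mean of 20 probes taken as housekeeping, a class the deposited table does not mark. Probes with at least 20 counts in at least 3 libraries (545 of 734) were tested with edgeR 4.0.16 in R 4.3.3, by its quasi-likelihood test in 1 model of the 4 groups, with Benjamini-Hochberg adjustment in each comparison. The SE is the size of the log2 fold change over the square root of the F statistic.

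Genes were named by rule: members with an adjusted p under 0.05, members past the methods' rule between genotypes, the 5 with the most counts, members at the edges of detection, and called genes of the 3 pathway lists. The members and lists were chosen with earlier results of these data known. Total counts were 504238 to 737910 per library, and their part in the precision was not tested.

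Replicate numbers come from the labels. Deviations from the group means correlated in 18 of 18 same-numbered pairs of libraries above 0.1 (0.136 to 0.521 over 545 genes), so the numbers pair the libraries. The main test does not use this pairing, and the replicate block does. Alternatives were the replicate block, TMM, DESeq2 1.42.0, limma 3.58.1, the methods' t-test, other housekeeping probes, filters and background treatments, a model of only the groups compared, and libraries left out.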

Additional observations from a re-analysis of the deposited data

Results flagged for a closer look

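Cd27, a TNF receptor family member of lymphocytes, was not tested, as it had 20 counts or more in only 2 libraries. Both were stimulated libraries of replicate 3, with 39 raw counts in the Kit and 60 in the Mettl3 library, above their highest negative control probes of 31 and 38 counts. The unstimulated libraries had 5 to 15 raw counts of Cd27 and the other stimulated libraries 9 to 15. The same 2 libraries had the highest summed counts of the 4 lymphocyte markers, 132.6 and 168. Most of that was Nkg7, at its highest there with 98.9 and 118.4 normalized counts. Gzma, Klrk1 and Ms4a1 gave 9.52, 9.52 and 14.65 in the Kit library and 9.105, 23.2 and 17.4 in the Mettl3 library. Tigit, which is not on that list, was also highest in these libraries, at 112.8 and 136.6. The part of these genes in the Cd27 counts was not tested.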

How the results depend on the processing

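With at least 50 counts in at least 3 libraries 19 genes were detected, and 26 lay above the negative probes by 2 SD, against 32. The 4 calls with stimulation in Kit cells ran from 1 to 4 with a replicate or library left out and were 1 without both Kit libraries of replicate 1 (chosen after seeing the data). The 7 calls in Mettl3 cells ran from 3 to 7 and were 3 with the methods' t-test after adjustment, the cause of which was not tested. With the replicate block, the paired analysis, the counts were 6 and 8, and 0 in the comparisons of genotype and the interaction, as without it, and it kept every call among the receptor genes and added Cd1d1, Cd99 and Cd180. The comparison of stimulated genotypes gave 1 call (Fcgr3) in place of 0 with DESeq2 (20 panel genes higher and 3 lower, against 5 and 0), and 1 with the block and the stimulated Mettl3 library of replicate 3 left out (chosen after seeing the data; 41 panel genes higher and 4 lower), where stimulation gave 4 calls in Kit cells, Cd1d1 and Cd99 no longer among them, and 10 in Mettl3 cells, with 91 panel genes higher and 69 lower in Kit and 141 and 76 in Mettl3 cells. Of the alternative values of the 15 gene results named in the comparisons, 317 kept their direction and side of the threshold, 100 kept the direction and no longer passed, and 0 changed direction. Counts near the negative controls limit what can be said of genes with few counts, as the mean plus 2 SD of the negative probes reached 39.2.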
